A study of Mus musculus with 81 samples.

Results

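The genes described here encode the proteins of the cytosolic ribosome in the mouse, and their chromatin was followed as DNA was copied and as cells changed identity. They were chosen by symbol among protein-coding genes of the build mm10: Rpl or Rps followed by a digit, Rplp0, Rplp1, Rplp2 and Rpsa, without symbols that start with Rps6k or end in l. The rule gave 85 of 21887 protein-coding genes, on 19 chromosomes. Of these, 46 are large-subunit genes, 31 are small-subunit genes and 8 are other symbols that the rule takes in (Rpl22l1, Rpl7l1, Rps19bp1, Rpl37rt, Rps27rt, Rpl34-ps1, Rpl31-ps12 and Rps23rg1). Each gene was read over its gene model with 1 kb on each side, called its window. The rule itself reads symbols and no measured value.

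The series holds 81 samples in 27 groups of 3, measured by ATAC-seq, in which a transposase cuts open chromatin, and by repli-ATAC-seq, in which the cut DNA is also captured through EdU, a nucleotide built in during replication. Fibroblasts were mouse embryonic fibroblasts (MEF) of the line Black6-129X1/SvJ, heterozygous for Col1a1::tetOP-OKSM, R26-M2rtTA and Oct4GFP, so that 2 µg/mL doxycycline switches on the reprogramming factors OKSM in the whole culture. They were sampled at 6, 12 and 36 h of induction and, at 60 h, as the fractions Q1 to Q4 of CellTrace Violet, a dye that is diluted by division. Wild-type embryonic stem (ES) cells of the line 129/Ola were sampled at 0 and 9 h and as epiblast-like cells (EpiLC) at 48 h. Nascent chromatin was collected after 10 min in 20 µM EdU, mature chromatin 2 h after the label with 10 µM thymidine in the medium, and bulk chromatin is the DNA that the capture left unbound. A bulk list accompanies both the nascent and the mature arm in MEF. In a separate experiment all MEF carried the same alleles and were induced with doxycycline, and 5 µg/mL aphidicolin, which blocks the polymerases that copy DNA, was given to one of the groups at 4 h and left for 10 h. Treated and untreated cells were both harvested at 14 h, with 3 libraries each.

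Ribosomal proteins assemble with ribosomal RNA into the small subunit, which reads the mRNA, and the large subunit, which joins amino acids. Their genes are short, intron-containing and transcribed at high rates in growing cells. Many of their mRNAs begin with a C followed by a run of pyrimidines, the 5′ terminal oligopyrimidine (TOP) motif, through which mTOR signalling controls their translation.

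RefSeq promoter entries (build GRCm38.p6, the patched form of mm10) were found for 64 of the 85 genes, and these entries also give the strand. The stretches below run from 75 bases before to 20 bases from the annotated start. They are shown because counted open regions lie over them and because the genes behave differently in the aphidicolin experiment. Counts at the 3′ end relative to the start fell in Rpl35 and Rplp2. Rps18 and Rps10 fell over the whole window, Rps6 did not pass the test over its window, and Rps7 rose over its window. Capitals mark the unbroken run of pyrimidines that begins at the annotated start.
Rpl35, chr2:39005112-39005206, minus strand: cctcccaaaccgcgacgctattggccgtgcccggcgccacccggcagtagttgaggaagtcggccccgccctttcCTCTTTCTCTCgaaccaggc
Rplp2, chr7:141447576-141447670, plus strand: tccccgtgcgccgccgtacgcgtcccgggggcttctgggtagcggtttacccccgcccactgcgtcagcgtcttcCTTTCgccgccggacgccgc
Rps18, chr17:33955646-33955740, minus strand: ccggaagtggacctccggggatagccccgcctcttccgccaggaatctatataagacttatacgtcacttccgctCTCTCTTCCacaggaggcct
Rps10, chr17:27635225-27635319, minus strand: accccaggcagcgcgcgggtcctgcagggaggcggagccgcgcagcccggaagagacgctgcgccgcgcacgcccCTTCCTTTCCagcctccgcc
Rps6, chr4:86857348-86857442, minus strand: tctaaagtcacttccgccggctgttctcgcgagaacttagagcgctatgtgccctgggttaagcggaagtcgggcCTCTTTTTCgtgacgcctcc
Rps7, chr12:28635934-28636028, minus strand: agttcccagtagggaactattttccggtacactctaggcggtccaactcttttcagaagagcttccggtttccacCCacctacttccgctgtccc

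The pyrimidine runs of this selection differ in length, from 11 bases in Rpl35 to 2 in Rps7. Beyond the selection, Rpl10 and Rpl11 (runs of 0) and Rpl15 (13) were called lower with aphidicolin. Rpl27a, with a run of 16, was not called. A link between run and fold was not tested. An annotated start at C followed by 4 pyrimidines was found in 14 of 64 ribosomal protein genes (21.9%) and in 2.67% of 17492 genes with an entry. Over the whole promoter window of 300 bases, read on both strands, CCGGAAG, the core of sites for ETS-family factors, was present in 24 of 64 (37.5%) against 12.9% of all genes. CTCTTTC was present in 18 (28.1%) against 8.92%, and it can overlap a pyrimidine start. TATAAA was present in 8 (12.5%) against 14.8%, and CCAAT in 20 (31.2%) against 42.3%. These are matches of letters in a fixed window.

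Ribosomal protein genes were open in nearly every bulk list. In ES cells, 83 of 85 had a peak in their window in each bulk list (0, 9 and 48 h), where 80.1%, 80.0% and 81.0% of all genes did. In MEF the bulk lists of the nascent and mature arms held peaks at 82 of 85 genes at 6 h, 82 at 12 h and 83 at 36 h, beside 77.9%, 79.1% and 76.8% of all genes in the lists of the nascent arm and 78.7%, 78.2% and 76.9% in those of the mature arm. The sorted fractions Q1, Q2, Q3 and Q4 held peaks at 82, 82, 82 and 80, beside 71.3%, 70.6%, 71.5% and 66.8%. When every list was brought to the length of the shortest by score, the share of ribosomal protein genes with a peak was below that of all genes in all 9 bulk lists, for example 10.6% against 12.9% in ES cells at 0 h and 5.88% against 10.8% in the mature-arm bulk list at 6 h. Lists were deposited once per group, so these counts have no replicate spread and no test.

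The exceptions were not typical members. Rps27rt and Rpl31-ps12 had no peak in any of the 25 lists. Rps23rg1 had a peak in all 3 ES bulk lists (5 peaks in each) and, in MEF, only in the 2 bulk lists at 36 h. With Rpl5, which binds 5S ribosomal RNA (6 peaks), and Rps15a (5 peaks), it had the most peaks in the ES bulk list at 0 h.

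On newly copied DNA, 73, 73 and 75 of 85 genes had a nascent peak in ES cells at 0, 9 and 48 h, against 57.1%, 54.8% and 66.5% of all genes. In MEF, 78 of 85 had one at 12 h and 75 at 36 h, against 54.6% and 52.5%. At 6 h the nascent list was much shorter, with 3222 peaks, and 14 of 85 (16.5%) had a peak against 12.9% of all genes. The mature list at 6 h held peaks at 43 genes (50.6% against 38.6%), and at 12 and 36 h at 81 and 82 (69.2% and 64.9% of all genes). With a score of at least 100 the shares at 6 h turned round, to 1.18% against 2.28% in the nascent list and 14.1% against 16.3% in the mature list. They also did so without the flanks, at 7.06% against 10.9% and 34.1% against 35.4%. In ES cells the mature lists held peaks at 83, 83 and 82 genes, beside 73.0%, 75.9% and 76.4% of all genes.

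Few genes had a nascent peak everywhere. Of the 85, 14 had one in all 6 nascent lists (16.5% against 11.6% of all genes), and they are the 14 genes of the 6 h list. Among them are Rpl4, Rpl13a, Rpl22l1, Rpl41, Rps18 and Rps19. A further 51 (60%) had one in 5 lists, where 32.2% of all genes did. Peaks in 4, 3, 2 and 1 lists were found for 9, 1, 4 and 2 genes, and 4 genes had none (29.6% of all genes): Rpl34-ps1, Rps9, Rps27rt and Rpl31-ps12. Rps9 and Rpl34-ps1 nevertheless had a peak in all 9 bulk lists.

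The strength of the peaks was compared within lists. Each gene's best peak was ranked by the authors' score within its list. In the ES bulk lists the median percentile was 88.1, 89.5 and 87.4 for ribosomal protein genes and 91.7, 91.7 and 92.2 for all genes with a peak. In the nascent lists of ES cells at 0, 9 and 48 h it was 59.9, 61.3 and 72.6, beside 66.8, 66.2 and 74.1. In the MEF nascent lists at 6, 12 and 36 h it was 55.9, 69.4 and 66.1, beside 54.3, 69.0 and 63.9. When only genes whose best bulk peak lay in the top 10% of its list were taken, 29 of 30 ribosomal protein genes (96.7%) had a nascent peak in ES cells at 0 h, against 94.0% of all such genes. At 12 h in MEF it was 56 of 57 (98.2%) against 91.5%, and at 6 h 14 of 44 (31.8%) against 29.5%. A mature peak at 6 h was less common, at 29 of 44 (65.9%) against 76.8% of all such genes. In every other nascent and mature list the ribosomal protein genes had the higher share.

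Peaks at the 3′ end were common. For the 64 genes with a strand, a peak was placed at the start when it overlapped the promoter entry, and at the 3′ end when it overlapped the stretch within 1 kb of the other end of the model and no promoter entry of any gene. At the start, 61, 61 and 60 of 64 had a peak in the ES bulk lists at 0, 9 and 48 h. At the 3′ end, 43, 47 and 44 of 64 did (67.2%, 73.4% and 68.8%), where 23.4%, 23.8% and 22.3% of all genes did.

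Fewer had a 3′ peak in MEF. The bulk lists of the nascent arm gave 26, 29 and 28 of 64 at 6, 12 and 36 h (40.6%, 45.3% and 43.8%), beside 17.2%, 20.4% and 17.0% of all genes. In the sorted fractions Q1 to Q4, 18, 13, 13 and 6 had one (28.1%, 20.3%, 20.3% and 9.38%, beside 9.02%, 8.15%, 8.91% and 6.13% of all genes). In nascent chromatin 3′ peaks were rarer than start peaks: 5 of 64 against 50 in ES cells at 0 h, and 6 against 57 in MEF at 12 h. All genes had a nascent 3′ peak in 2.49% and 2.47% of cases there, and a start peak in 48.0% and 45.9%. In mature chromatin of the same cells 35 and 21 of 64 had a 3′ peak (54.7% and 32.8%), beside 11.1% and 8.09% of all genes. Lists differ in length, and ribosomal protein genes are short, with a median model of 3175 bp against 17169 bp for all genes, so the 3′ window often lies close to the start. The part of length in these shares was not tested.

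**Figure D1:**
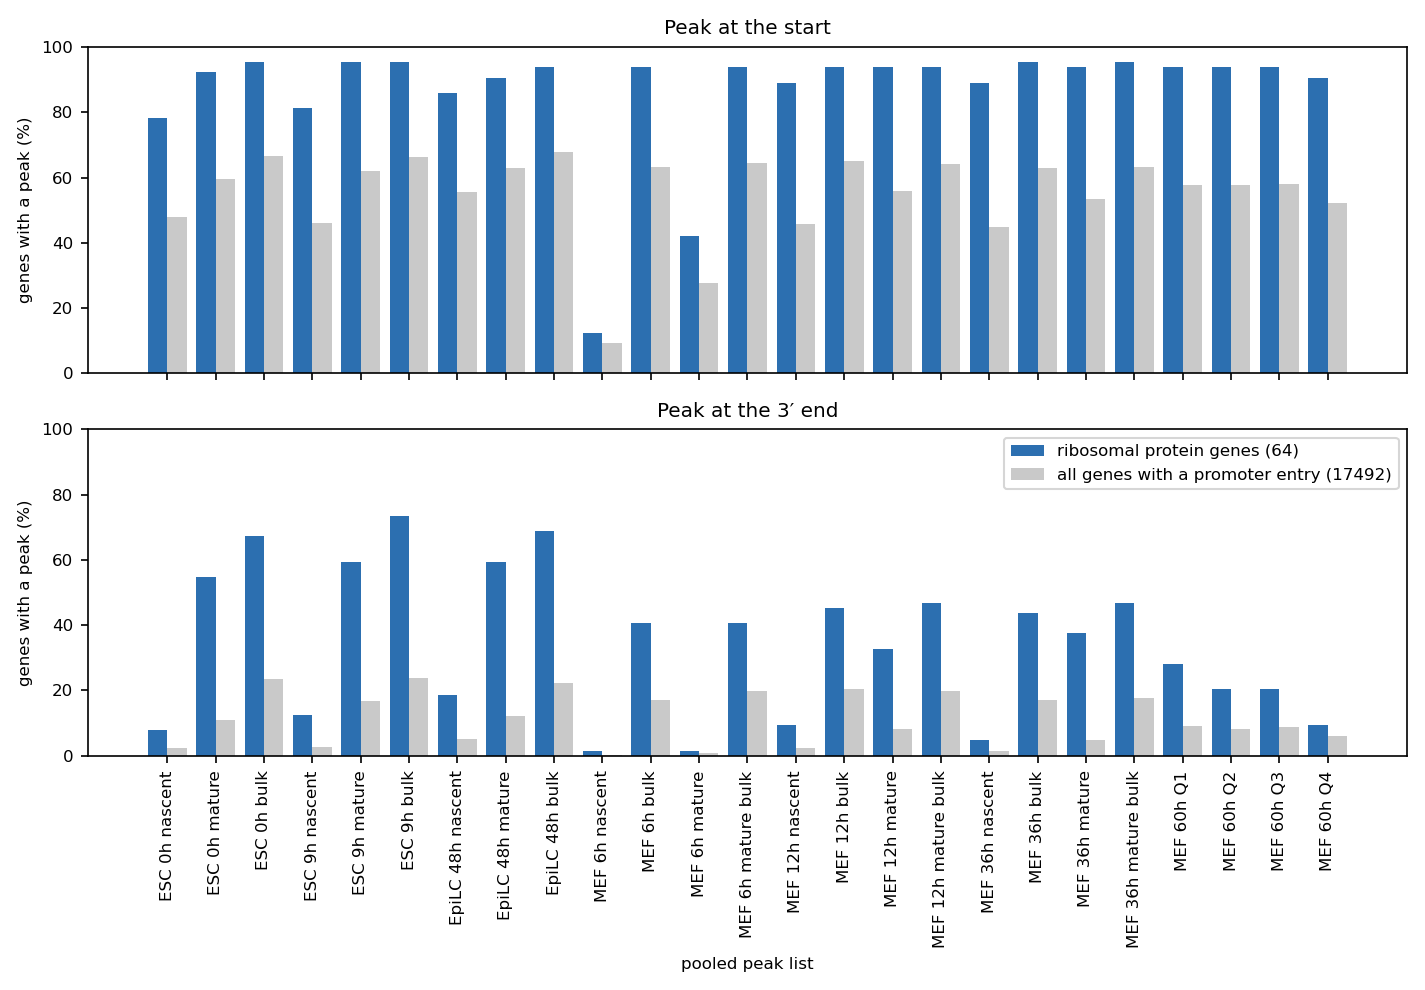
Share of genes with a peak at the start (upper plot) and at the 3′ end (lower plot) in each of the 25 pooled peak lists, in percent, for the 64 ribosomal protein genes with a strand (blue) and all 17492 genes with a promoter entry (grey). Start peaks were at 12.5% of the ribosomal protein genes in the 6 h nascent list of MEF and at 42.2% in the 6 h mature list, and 3′ peaks reached 73.4% in the 9 h bulk list of ES cells.

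The aphidicolin experiment was deposited as read counts over 139000 regions. Each region has a peak in all lists of at least 1 group, and more regions have it only with aphidicolin than only without. Shares over all regions can therefore lean towards higher values, which was not tested. The untreated libraries summed to between 41183769 and 49440524 counts and the aphidicolin libraries to between 55158844 and 78677381. The labels do not say whether libraries came from separate cultures, so p-values measure the spread between these libraries, which may be technical. Markers did not separate the labelled cells sharply by peak presence: 14 of 14 fibroblast markers had a peak in the MEF bulk list at 12 h, but so did 11 of 12 naive ES cell markers. Between the groups of the aphidicolin experiment, the summed CPM (a count scaled by library size) over 14 fibroblast markers ranged from 690.1 to 733.6 untreated and 708.8 to 732.2 treated. Naive ES cell markers (8 tested) summed to 598.3 to 614.6 untreated and 504.6 to 521.8 treated, macrophage and blood markers (5) to 142.1 to 153.3 and 126.1 to 132.7, endothelial markers (6) to 143.9 to 160.4 and 176.7 to 178.5, and muscle and neural markers (6) to 166.0 to 176.0 and 196.0 to 198.8. The naive sum includes Sox2, Pou5f1 and Klf4, which fell and can share reads with the inducible cassette. Of the 8 naive markers, 5 were called lower and 3 higher over their windows. The part of the marker lists in the results below was not tested.

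The windows of the ribosomal protein genes took a smaller share of the counts with aphidicolin. The 3 untreated libraries held 0.320%, 0.315% and 0.299% of their counts in these windows, and the 3 aphidicolin libraries 0.271%, 0.255% and 0.255%. The groups did not overlap, with means of 0.311% ± 0.0109 (SD, n = 3) and 0.260% ± 0.00943 (SD, n = 3). Over the gene models without flanks the groups did overlap, at 0.207% to 0.234% untreated and 0.192% to 0.208% treated. Regions within 1 kb of either end of the models of other genes, starts included, also took a smaller share. It was 33.4% to 37.5% untreated and 31.4% to 33.2% treated. Each of the 6 libraries had a called peak at 82 of the 85 genes, with 135, 133 and 142 peaks untreated and 123, 133 and 134 with aphidicolin.

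Counted regions were present in the windows of 82 genes, 127 regions in all, of which 118 had a peak in all 6 libraries. The fit over whole windows called 34 of 82 ribosomal protein genes lower and 4 higher with aphidicolin (edgeR quasi-likelihood test, Benjamini-Hochberg adjusted p under 0.05 over 16815 genes). Over all genes 24.4% were called lower and 22.5% higher. The 6 libraries did not overlap between groups in 41 of the 82 windows, and in 55.3% of all windows. The median log2 fold was -0.11 for the 82 genes and -0.0049 for all genes. Large-subunit genes had 22 of 46 lower and none higher at a median of -0.15, and none were higher at an unadjusted p under 0.05. Small-subunit genes had 11 of 31 lower and 3 higher at a median of -0.039. The difference between the subunits was not tested.

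**Figure D2:**
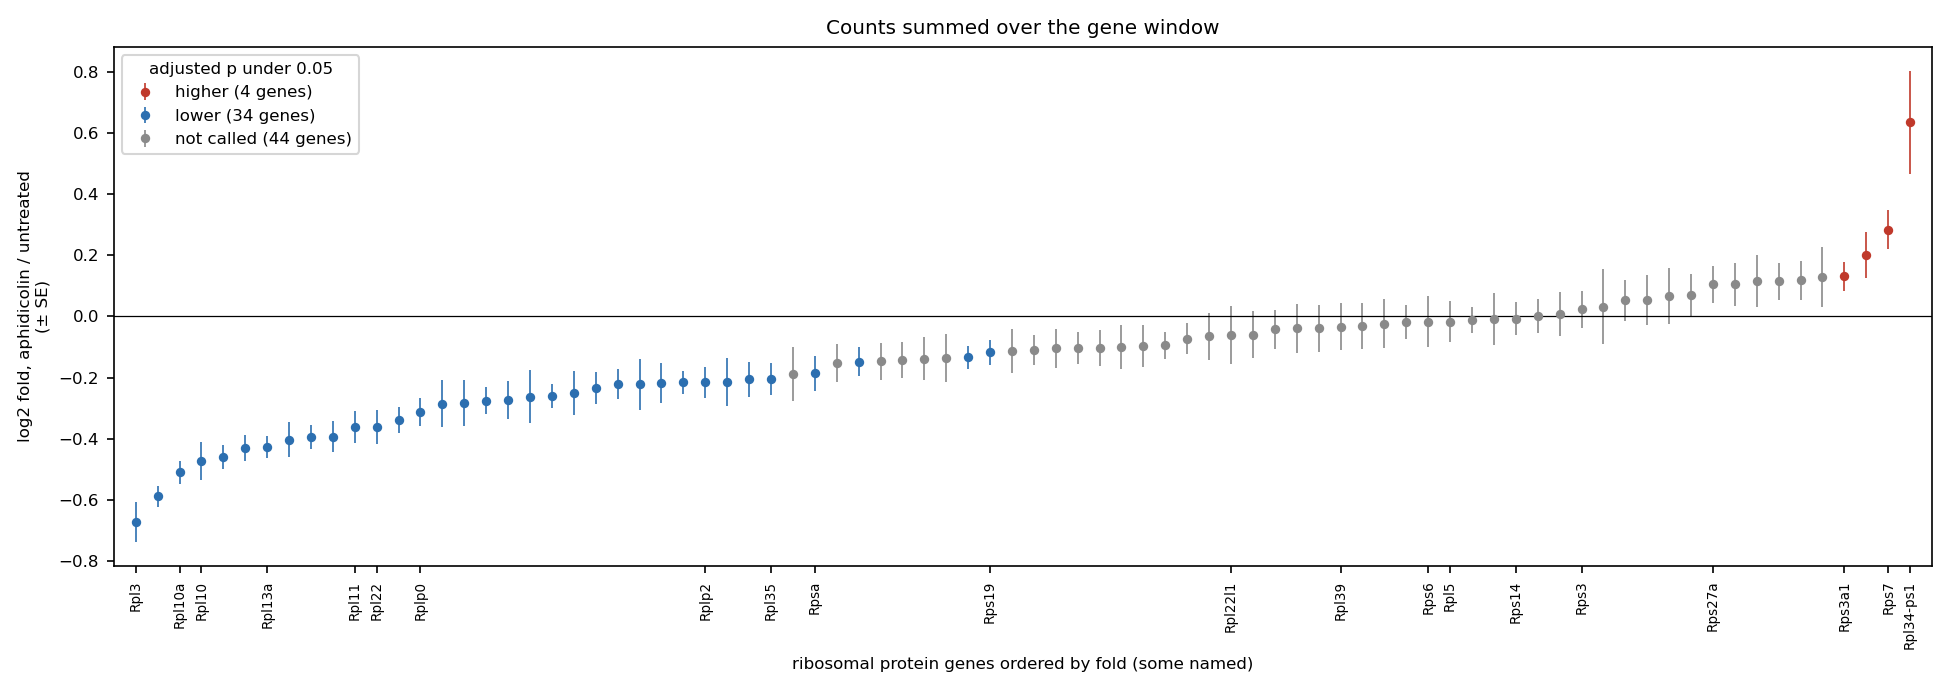
Log2 fold of aphidicolin over untreated for the 82 ribosomal protein genes with counted regions, ordered by fold, with bars of 1 SE from the edgeR fit (3 libraries per group) and names for some of the genes in the text. Blue points are called lower (34), red points higher (4) and grey points neither (44), and the folds run from -0.67 in Rpl3 to 0.63 in Rpl34-ps1.

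Rpl3, a large-subunit protein near the site of peptide bond formation, fell most. Its log2 CPM was 7.71, 7.98 and 8.02 untreated and 7.24, 7.27 and 7.20 with aphidicolin. Every treated library lay below every untreated one, and the log2 fold was -0.67 ± 0.07 (SE, edgeR adjusted p = 6.9e-05). Read over the gene model without flanks the fold was -0.09 and not called (adjusted p = 0.22).

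Rpl13a, a large-subunit protein also linked to translational silencing in inflammation, fell too. It measured 7.32, 7.36 and 7.28 log2 CPM untreated and 6.92, 6.88 and 6.87 treated, a log2 fold of -0.43 ± 0.03 (SE, edgeR adjusted p = 4.3e-05). The groups did not overlap. Its window overlaps that of a neighbouring gene, with which it shares counts.

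Other large-subunit genes fell by similar amounts. Rpl10a measured 7.14, 7.22 and 7.19 log2 CPM untreated and 6.65, 6.74 and 6.64 treated. Rpl10, which is placed late in subunit assembly, measured 5.82, 6.06 and 6.08 against 5.50, 5.51 and 5.54. Their log2 folds were -0.51 ± 0.04 and -0.47 ± 0.06 (SE), and those of Rpl41 and Rpl4 were -0.46 and -0.40, with no overlap between groups in these 4 genes. Rpl41 and Rpl4 were not called without the flanks (folds -0.14 and -0.02).

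Rpl5 and Rpl11 form a particle with 5S ribosomal RNA that can restrain Mdm2, the ubiquitin ligase of p53, and they differed in call. Rpl11 fell from 5.41, 5.42 and 5.52 log2 CPM to 5.13, 5.04 and 5.11, a log2 fold of -0.36 ± 0.05 (SE, edgeR adjusted p = 0.00034). Rpl5 measured 4.85, 4.66 and 4.86 against 4.81, 4.71 and 4.80, with overlapping groups and a fold of -0.017. The difference between these genes was not tested. Rpl22 fell by 0.36 on the log2 scale, and its paralog Rpl22l1 had a fold of -0.061 with overlapping groups.

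The stalk proteins recruit translation factors to the large subunit. Rplp0, the stalk base, fell by 0.31 on the log2 scale, from 7.06, 6.97 and 6.89 to 6.72, 6.63 and 6.64 log2 CPM. Rplp1 (fold -0.21, adjusted p = 0.041, overlapping groups) and Rplp2 (fold -0.21, adjusted p = 0.0056) were also called lower. Rplp1 was not called with library totals in place of TMM (-0.20) or with offsets that follow strength (-0.18), and Rplp0 and Rplp2 not without the flanks (-0.11 and -0.097).

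The windows of several well-studied genes were not called. Rps6, the S6 kinase substrate, measured 4.94, 5.00 and 4.73 log2 CPM untreated and 5.02, 4.83 and 4.77 treated. Rps14, whose loss causes the anaemia of the 5q- syndrome, measured 5.15, 5.10 and 5.15 against 5.16, 5.04 and 5.17. In both the groups overlapped, with folds of -0.017 and -0.0072, and Rps3 (0.023), Rps27a, which is made as a fusion with ubiquitin (0.10), Rpl39 (-0.033), Rpl29 (0.0011) and Rps15a (0.0068) were not called either. In the separate fit of single regions, the 3′ region of Rps6 (chr4:86853361-86853476) fell by 0.62 on the log2 scale (edgeR adjusted p = 0.0063). In that fit 2 regions of Rps15a fell by 0.36 and 0.34 and were also called. Region folds are scaled apart from window folds and are not directly comparable with them. The median region fold was -0.15 over all 3′ regions and -0.32 over the top 10% of all regions by mean log2 CPM. Rps19, the gene most often mutated in Diamond-Blackfan anaemia, fell by 0.12 (adjusted p = 0.035), Rpsa, also known as a laminin receptor, fell by 0.19 (adjusted p = 0.019), and Rpl35 fell by 0.20 (adjusted p = 0.0084). None of these 3 was called without the flanks (-0.057, -0.089 and -0.087).

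Among the 4 genes that rose were Rps3a1, Rps7 and Rpl34-ps1. Rps7 measured 4.13, 4.05 and 4.06 log2 CPM untreated and 4.41, 4.33 and 4.34 treated, a log2 fold of 0.28 ± 0.06 (SE, edgeR adjusted p = 0.0046). Rps3a1 rose by 0.13, and Rpl34-ps1, which has a weak single region, by 0.63 ± 0.17 (1.84, 1.13 and 1.36 against 2.17, 2.07 and 2.10). The groups did not overlap in any of these 3. Rps7 and Rpl34-ps1 have 1 counted region each. In the separately scaled fit of single regions, none of the 127 regions was called higher. The rise of Rps7 and Rpl34-ps1 was therefore called over windows only, although both fits read the same counts. Rps7 and Rps3a1 were not called with a 5 kb flank (folds 0.053 and 0.11). Rps3a1 was not called without regions shared with other genes (0.10) or without the flanks (0.11). With offsets that follow strength, Rpl34-ps1 (0.26) was not called.

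Single regions were then fitted one by one. Of the 127 regions, 82 were called lower and none higher (edgeR adjusted p under 0.05), where 17.9% of all 138996 regions were lower and 18.0% higher. By DESeq2 the counts were 81 and 0, and at an unadjusted p under 0.05 with edgeR 95 were lower and 1 higher. The median log2 fold was -0.33 for the 127 regions and 0.018 for all regions. Strong regions fell more than weak ones over the whole table, with medians of -0.32 in the top 10% by mean log2 CPM and 0.37 in the lowest 10%. The top 10% held 69 of the 127, at a median of -0.34, beside -0.33 for all start regions of that strength. With offsets that follow strength 41 of the 127 were lower and 4 higher, beside 10.8% and 11.2% of all regions. With library totals 50 were lower and 4 higher, beside 7.99% and 30.3% of all regions, a scaling that moved the median of all regions up by 0.158.

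The start regions of the ribosomal protein genes had a median close to that of all genes, and the 3′ regions had a lower one than the 3′ regions of all genes. At starts, 36 of 62 regions were called lower and none higher at a median of -0.27, beside 53.2% lower and 3.09% higher among all start regions at a median of -0.26. No start region was higher at an unadjusted p under 0.05. At 3′ ends, 20 of 22 regions were lower and none higher (none also at an unadjusted p under 0.05) at a median of -0.72, beside 30.2% lower and 9.05% higher among all 3′ regions at a median of -0.15. With offsets that follow strength, 17 of 22 regions at 3′ ends were lower (median -0.68), beside 24.7% of all, and 7 of 62 at starts (median -0.013), beside 6.67%. The 3′ regions were weaker than the start regions, with median log2 CPM of 2.77 and 4.37.

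**Figure D3:**
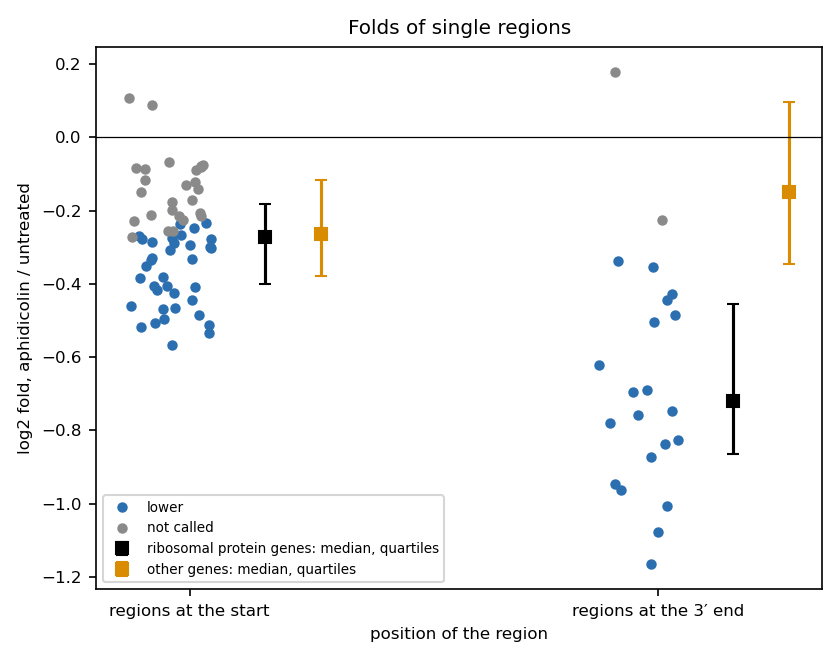
Log2 fold of aphidicolin over untreated for each counted region at the start (62 regions) and at the 3′ end (22 regions) of ribosomal protein genes, blue where called lower and grey where not, with the median and quartiles of these regions (black) and of the regions of other genes (orange). At the start both medians are near -0.27, and at the 3′ end they are -0.72 and -0.15.

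Several of the regions with large falls lay beyond a gene's end. They include regions past the 3′ ends of Rpl35 (chr2:39000444-39000617, fold -1.17), Rps2 (chr17:24722617-24722955, fold -1.08), Rpl10a (chr17:28331969-28333314, fold -1.01) and Rplp2 (chr7:141452075-141452376, fold -0.96). The Rpl10a region is strong, at 6.01, 6.15 and 6.04 log2 CPM untreated and 5.02, 5.10 and 5.06 treated. The start region of Rpl10a measured 5.96, 5.77 and 5.69 against 5.46, 5.44 and 5.31, a fold of -0.41. The groups did not overlap at either place.

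Another region, at chr15:80074818-80077060, is 721 bp from the low-coordinate end of Rpl3. It carries most of that gene's counts, at 7.34, 7.56 and 7.54 log2 CPM untreated and 6.58, 6.55 and 6.44 treated, a fold of -0.96. The region at the other end of Rpl3 measured 4.66, 4.55 and 4.45 against 4.26, 4.22 and 4.33, a fold of -0.28. Of the regions past 3′ ends, those of Rpl35, Rps2 and Rpl10a also lie in the window of a neighbouring gene.

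The count at the 3′ end relative to the start of the same gene does not depend on how libraries are scaled. This ratio could be taken for 20 ribosomal protein genes and 2019 genes in all with a mean count of at least 20 at both places. It fell in 8 of 20 and rose in none (limma on log2 ratios, adjusted p under 0.05), where 4.56% of all genes fell and 8.82% rose, and none of the 20 rose at an unadjusted p under 0.05. The median difference was -0.35 for the 20 genes and 0.085 for all.

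In Rpl35 the log2 ratio was -2.48, -2.16 and -2.12 untreated and -3.16, -3.14 and -3.13 with aphidicolin. The treated libraries were all lower, and the difference was -0.89 ± 0.14 (SE) (limma adjusted p = 0.0050). In Rps2 it was -1.90, -1.84 and -1.82 against -2.58, -2.45 and -2.71, and in Rplp2 -1.97, -1.92 and -1.77 against -2.89, -2.49 and -2.33. Rpl10a (-0.60), Rpsa (-0.59), Rps19 (-0.58), Rpl10 (-0.42) and Rpl13a (-0.34) fell too, with no overlap between groups in any of the 8.

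The number of genes called depended on the libraries. It was 3, 3 and 4 of 20 without aphidicolin library a, b or c, 3 without untreated library b, 8 without untreated library c and 15 without untreated library a, and none was called higher in these 6 fits. When 3′ regions that lie in another gene's window were left out, 13 genes remained and 3 fell: Rplp2, Rpsa and Rps19. The shares of all genes called in these fits are not reported here. Whether the number called moved likewise over all genes cannot be read from these counts. Rps3a1, one of the genes whose window rose, had a ratio difference of 0.26 that was not called.

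**Figure D4:**
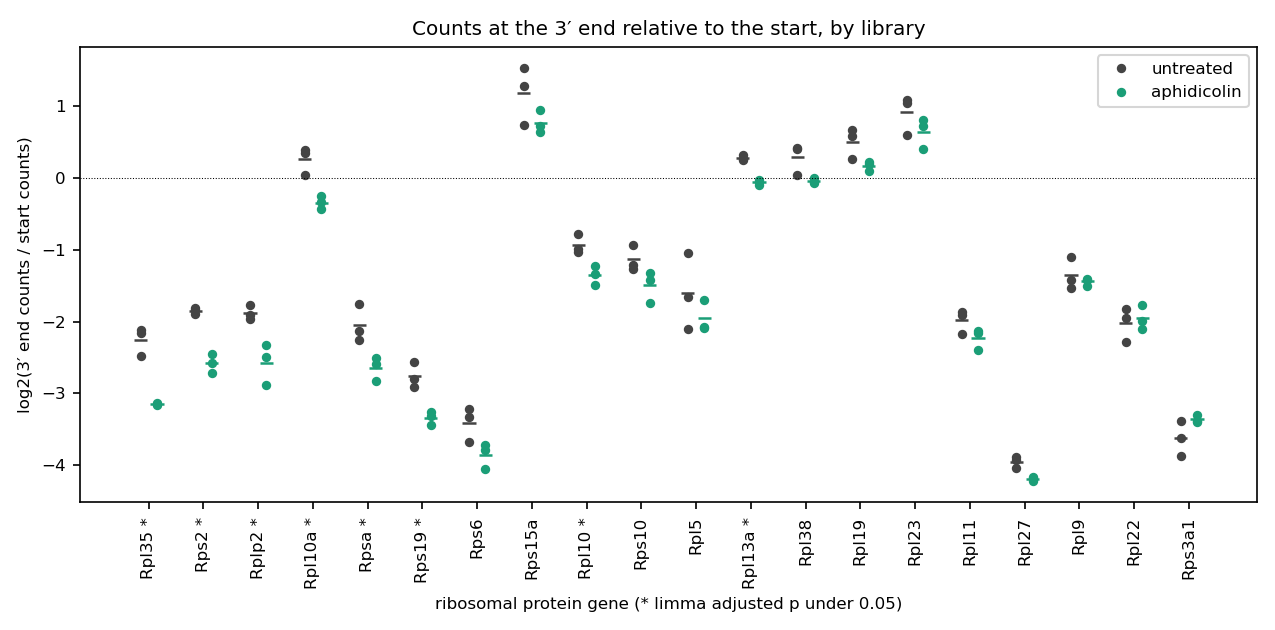
Log2 ratio of 3′ end to start counts in each library for the 20 ribosomal protein genes with counts at both places, 3 untreated libraries (dark) and 3 aphidicolin libraries (green) per gene, with a bar at the group mean. A star marks the 8 genes with a limma adjusted p under 0.05, in all of which the treated libraries lie below the untreated ones, as in Rpl35 at -3.16 to -3.13 against -2.48 to -2.12.

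Genes that work with the ribosome were read over their windows in the same fit. Over all genes in that fit, 24.4% were lower and 22.5% higher. Of 45 genes of ribosome biogenesis and ribosomal RNA synthesis, 22 were lower (48.9%) and 3 higher at a median of -0.15, led by Nop56 (-0.40), Ncl (-0.36) and Rrp9 (-0.29). Of 21 translation factors whose mRNAs carry TOP motifs, 14 were lower (66.7%) and 1 higher at a median of -0.18, led by Eef2 (-0.43), Tpt1 (-0.34) and Eef1d (-0.22). Of 78 genes for mitochondrial ribosomal proteins, which are encoded in the nucleus but serve another ribosome, 22 were lower and 5 higher. The share lower, 28.2%, was near that of all genes. The median was -0.075, with Mrpl41 (-0.39), Mrps16 (-0.40) and Mrpl18 (-0.30) at the lowest p.

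Among 16 genes of TOP and ribosome signalling, 8 were lower and 2 higher, with Akt1 (-0.23), Trp53 (-0.18) and Larp4 (-0.23) at the lowest p. Of 13 promoter factors linked to ribosomal protein genes, 6 were lower and none higher, with Max (-0.32), Sp1 (-0.29) and Zbtb7a (-0.23) at the lowest p, and none was higher at an unadjusted p under 0.05. The 3′ to start ratio could be taken for 12 mitochondrial ribosomal protein genes, of which 3 rose and none fell, and for 11 genes of ribosome biogenesis, of which none was called and 2 fell and 2 rose at an unadjusted p under 0.05. For 5 translation factors 2 fell and none rose. Over all genes with a ratio, 4.56% fell and 8.82% rose.

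The marker lists moved in both directions over their windows. Fibroblast markers had 5 of 14 higher and 2 lower, with Fap (0.71), Thy1 (-0.34) and Lum (0.73) at the lowest p. Naive ES cell markers had 3 of 8 higher and 5 lower, with Sox2 (-0.51), Pou5f1 (-0.44) and Klf4 (-0.32), which can share reads with the inducible cassette. Endothelial markers had 3 of 6 higher, led by Tek (0.30), formative EpiLC markers 1 of 7 higher (Fgf5, 0.31), macrophage and blood markers 1 of 5 higher (Ptprc, 0.41) and 2 lower (Cd68, -0.39, and Csf1r, -0.26), muscle and neural markers 2 of 6 higher (Map2, 0.42, and Myod1, 0.73) and 1 lower (Tubb3, -0.23), and epithelial markers 1 of 5 higher (Esrp1, 0.78) and 1 lower (Krt8, -0.21).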

How the data were processed

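The members, gene lists and rules were chosen with earlier results of these data known, and the split into start and 3′ regions and the ratio between them were added after the data were seen. Per the submitters' processing notes, the authors worked on mm10, and the notes name Bowtie2 (version 2.2.5), MACS2 (version 2.2.0) and bedtools (version 2.26.0). Their parameters and the step that made the counts are not given in the sources used here. Deposited by the authors were peak lists with a score per peak, used only to rank or filter within a list, and raw counts per region for the 6 libraries of the aphidicolin experiment. No source ties the numbers of the count columns to samples, so libraries are called a, b and c in number order.

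Counts of regions that overlap a window by at least 1 bp were summed per gene. Gene windows and regions were fitted over all features with edgeR 4.0.16 (TMM, filterByExpr) in R 4.3.3, the SE being derived from the test's F statistic. Log2 CPM values use a prior count of 2. Ratios of 3′ to start counts, with 0.5 added to each, were tested with limma 3.58.1. Tests were two-sided with a Benjamini-Hochberg threshold of 0.05. Scripts were tested on simulated data. Genes named follow a set list of roles, the largest changes in each direction, the smallest changes and the extremes of peak presence, and some that the rule names are not reported here. Genes named for the ratio, and Rps10 and Rps18, were chosen after their values were seen. Alternatives were DESeq2 1.42.0, library totals, offsets following strength (loess span 0.3), other windows and filters, a replicate block and leaving out each library.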

Additional observations from a re-analysis of the deposited data

How the results depend on the processing

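The pooled lists have no replicates, and their counts move with list length; weak regions have wide errors. Some settings (the ratio's count minimum, its shared regions and its left-out libraries, and leaving out the other symbols) were chosen after seeing the data. Windows called lower numbered 33 by DESeq2, 31 with library totals, 30 with offsets that follow strength, 28 over regions found open in each of the 6 libraries and 26 without shared regions. They moved to 55 with a 5 kb flank and 22 with no flank. Windows called higher were 2 with either flank, with strength offsets and without shared regions. Leaving out 1 library gave 23 to 37 lower and 2 to 4 higher, 2 without any library other than untreated a. For regions, library totals gave 50 lower and 4 higher (7.99% and 30.3% of all regions), strength offsets 41 and 4 (10.8% and 11.2%), and regions open in each of the 6 libraries 52 and 1. Leaving out 1 library gave 53 (without aphidicolin b) to 96 lower and 0 to 2 higher (2 without untreated a). For the ratio, leaving out 1 library gave 3 to 15 lower and 0 higher, leaving out shared 3′ regions 3, and a mean count of at least 100 gave 8. Except where given in brackets, shares over all features under these settings are not reported here. Those counts therefore do not show how far the ribosomal protein genes stood apart from other genes.

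Same-numbered libraries of the groups had deviations that correlated at 0.47, 0.045 and 0.30 over gene windows, and aphidicolin b correlated best with untreated c (0.29), so the numbers were not taken as a pairing. With the number as a replicate block, 42 windows were lower and 4 higher, and 96 regions were lower and 1 higher. The shares over all features in the block fit are not reported here.

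With every list brought to 3222 peaks by score, the ribosomal protein genes with a peak numbered 17 in ES 0h nascent, 14 in ES 0h mature, 9 in ES 0h bulk, 16 in ES 9h nascent, 12 in ES 9h mature, 9 in ES 9h bulk, 13 in EpiLC 48h nascent, 16 in EpiLC 48h mature, 12 in EpiLC 48h bulk, 7 in MEF 6h bulk, 8 in MEF 6h mature, 5 in MEF 6h mature bulk, 21 in MEF 12h nascent, 9 in MEF 12h bulk, 10 in MEF 12h mature, 6 in MEF 12h mature bulk, 23 in MEF 36h nascent, 9 in MEF 36h bulk, 18 in MEF 36h mature, 9 in MEF 36h mature bulk, 11 in MEF 60h Q1, 12 in MEF 60h Q2, 8 in MEF 60h Q3, 12 in MEF 60h Q4. These shares were below those of all genes in all 9 bulk lists (ES 0h bulk 10.6% against 12.9%, MEF 6h mature bulk 5.88% against 10.8%, MEF 12h mature bulk 7.06% against 11.6%), and above them in 5 of 6 nascent lists, EpiLC 48h being the exception (15.3% against 15.8%). The median percentile of the best peak was then 45.9 in ES 0h mature, 23 in ES 0h bulk, 53.5 in ES 9h mature, 38.3 in ES 9h bulk, 47.2 in EpiLC 48h nascent, 56.5 in EpiLC 48h mature, 47.3 in EpiLC 48h bulk, 61 in MEF 6h bulk, 67.9 in MEF 6h mature bulk, 60.6 in MEF 12h nascent, 63.6 in MEF 12h bulk, 50.0 in MEF 12h mature, 67.3 in MEF 12h mature bulk, 55.8 in MEF 36h nascent, 34.9 in MEF 36h bulk, 56.1 in MEF 36h mature, 39.8 in MEF 36h mature bulk, 62.4 in MEF 60h Q1, 57.2 in MEF 60h Q2, 75.6 in MEF 60h Q3. A score of at least 100 left 1 gene in MEF 6h nascent (1.18% against 2.28% of all genes) and 12 in MEF 6h mature (14.1% against 16.3%), and no flank left 6 in MEF 6h nascent (7.06% against 10.9%). That score gave means of 127 peaks per untreated library and 123 per aphidicolin library. The share of counts was 0.221% untreated and 0.198% treated with no flank, where the groups overlapped, and 0.324% and 0.277% for regions open in each of the 6 libraries.

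No named result that passed its test changed sign. Log2 values of results that did not pass changed sign in these cases. For Rpl5 the fold was 0.0648 (no flank), 0.00766 (regions open in each library), 0.043 (gene ends only), 0.0375 (no shared regions), 0.0148 (without aphidicolin b), 0.0158 (without untreated a), 0.0238 (without untreated c). For Rpl22l1 the fold was 0.000975 (gene ends only), 0.0041 (without aphidicolin b), 0.0382 (without untreated a). For Rpl39 the fold was 0.0262 (gene ends only), 0.0057 (without aphidicolin b), 0.0144 (without untreated b). For Rps3 the fold was -0.141 (5 kb flank), -0.0337 (strength offsets), -0.00642 (no shared regions), -0.00248 (without aphidicolin c). For Rps6 the fold was 0.0142 (no flank), 0.0408 (regions open in each library), 0.043 (gene ends only), 0.0068 (without aphidicolin b), 0.0333 (without aphidicolin c), 0.00434 (without untreated a), 0.0457 (without untreated b). For Rps14 the fold was 0.0101 (library totals), 0.0133 (strength offsets), 0.0176 (regions open in each library), 0.0527 (gene ends only), 0.0351 (without aphidicolin b), 0.000197 (without untreated a), 0.00976 (without untreated c). For Rpl29 the fold was -0.164 (5 kb flank), -0.000589 (no flank), -0.00958 (strength offsets), -0.0285 (no shared regions), -0.000819 (replicate block), -0.00163 (without aphidicolin b), -0.0254 (without aphidicolin c), -0.0222 (without untreated a). For Rps15a the fold was -0.0228 (no shared regions), -0.00411 (without aphidicolin b), -0.00376 (without aphidicolin c), -0.0866 (without untreated a). For Rpl22 the ratio difference was -0.029 (without aphidicolin b), -0.0678 (without untreated a). For Rpl9 the ratio difference was 0.0369 (without untreated c).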
